A study of Mus musculus with 16 samples.

Results

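The genes described here build and serve the photoreceptor cilium and its intraflagellar transport. They were a list of 42 gene symbols, each taken from its brightest transcript cluster with that symbol alone. Of the 42, 40 had such a cluster, among 19938 genes measured in this way. Arl6 and Arl13b were not analysed here.

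RNA came from male Balb/cJ mice, an albino strain, aged 10 weeks. In 4 mice bright cool white fluorescent light of 10000 lux was given over 18 hours, and the mice were killed 4 hours after it ended. The 4 control mice stayed on a regular 12-hour cycle, so that bright light and the change of light schedule cannot be told apart. From each mouse the neurosensory retina (NSR) and the isolated retinal pigment epithelium (RPE) were put on separate Affymetrix Mouse Gene 1.0 ST arrays, which gave 16 arrays in 4 groups of 4. The values are RMA expression values on the log2 scale, where a difference of 1 is a 2-fold difference.

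The outer segment of a rod or cone is a modified primary cilium, joined to the cell body by a narrow connecting cilium through which all outer segment proteins pass. Intraflagellar transport (IFT) carries cargo along it: the IFT-B complex works with kinesin motors towards the tip, and the IFT-A complex with dynein on the way back. The BBSome is a protein coat that moves membrane proteins in and out of cilia, and a gate called the transition zone controls entry. Inherited loss of many of these proteins causes retinal degeneration, and the RPE and other retinal cells carry primary cilia of their own.

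The sites of the X-box, the sequence bound by RFX factors that drive many ciliary genes, are shown first because Ift57 and Bbs7 recur in the results below. Ahi1 was shown as the other gene with the full palindrome in the form searched, and Rpgrip1 for a site of CRX, a photoreceptor factor. RefSeq windows of the GRCm38.p6 assembly, from 250 bases before to 50 after a start, were found for 38 of the 42 listed genes, in 45 windows. Capitals mark GTTGCC, the X-box core, in Ift57, and in Bbs7 and Ahi1 the X-box palindrome. The palindrome was searched with its arms GTTNCC and GGNAAC 2 bases apart. In Rpgrip1 capitals mark TAATCC in either direction.
Ift57, chr16:49699144-49699293, + strand, 150 bases before the start: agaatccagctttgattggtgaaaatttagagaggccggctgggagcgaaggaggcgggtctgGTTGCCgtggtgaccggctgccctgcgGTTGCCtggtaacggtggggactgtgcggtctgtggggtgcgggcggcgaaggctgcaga
Bbs7, chr3:36613489-36613518, - strand: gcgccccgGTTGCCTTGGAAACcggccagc
Ahi1, chr10:20952560-20952589, + strand: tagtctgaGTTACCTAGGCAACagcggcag
Rpgrip1, chr14:52110863-52110892, + strand: gctaaaaggcctGGATTAgtgtctcctcta

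In Ift57 the cores began 87 and 60 bases before the start, in Bbs7 the palindrome began 121 bases before it, and in 1 of the 2 windows of Ahi1 22 bases after it. Bases are counted to the first letter of the match as printed. In Ift57 the arm GGTAAC also followed the core at 60 bases, but after 1 base, a spacing that was not searched. On either strand GTTGCC stood in 15 of the 45 windows (33.3%), against 12.5% of all 32851 windows of the same length. The palindrome, which can contain that core, stood in 2 of the 45 (4.44%, against 0.451% of all windows). A looser form with the arms GTNNCC and GGNNAC stood in 6 (13.3%, against 1.88%), Ift57 among them. TAATCC stood in 3 (6.67%, against 7.06%), and CACGTG, the E-box, searched as an unrelated motif, in 2 (4.44%, against 7.15%). These are matches of letters and show no binding.

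Array medians lay between 6.52 and 6.57 in the NSR and between 6.38 and 6.43 in the RPE, and an array correlated with the others of its group at 0.987 to 0.991 on average. RPE and rod markers matched the labelled tissues. The median of 25 RPE markers was 11.33 to 11.48 in control RPE and 6.47 to 6.76 in control NSR. Rod markers, 22 of the 25 listed, had medians of 11.54 to 11.66 in control NSR and 7.60 to 8.19 in control RPE. Among control RPE arrays, number 2 had a lens marker median of 7.63 where the rest had 6.12 to 6.25. Among light-exposed RPE arrays, number 2 had a median of corneal and ciliary epithelial markers of 8.16 (the rest 6.11 to 6.21), and number 1 a rod marker median of 8.37 (the rest 7.21 to 7.61). The dimmest 25% of genes lay below 5.63 on average, and 0 of the 40 cilium genes were among them. Genes of the motile cilium, such as dynein arms and radial spokes, had medians of 5.48 to 5.87 over all arrays, with 6 or 7 of 17 in the dimmest 25% of each group.

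Control mice showed how the cilium genes were divided between the tissues. Of the 40, 25 were lower and 5 higher in control RPE than in control NSR, and 10 did not pass the test (limma on all 16 arrays, Benjamini-Hochberg adjusted p under 0.05). Among all genes 55% were called, 24.2% lower and 30.8% higher in RPE. Values of the tissues were fully separate for 22 lower and 5 higher cilium genes, against 22.8% and 29.5% of all genes. The median log2 difference was -0.52 for the cilium genes and 0.04 for all genes. The 7 BBSome genes on the list were lower in RPE, the IFT-B genes went both ways, and the 3 listed IFT-A genes differed by at most 1.3-fold.

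Mak, a kinase that restrains the length of photoreceptor cilia, had the largest difference. Its values were 11.54, 11.54, 11.52 and 11.49 in control NSR and 7.05, 6.86, 6.95 and 6.82 in control RPE. That is a 24.3-fold lower value in RPE (log2 -4.60, SE 0.31, adjusted p = 3.49e-10). Rpgrip1, which anchors RPGR in the connecting cilium, stood at 10.50, 10.41, 10.24 and 10.51 in control NSR and at 7.30, 7.47, 7.25 and 7.45 in control RPE. It was 8.27-fold lower (log2 -3.05, SE 0.09, adjusted p = 3.2e-15). Lca5, whose product lebercilin binds IFT proteins, had 9.04, 9.09, 9.19 and 9.09 in NSR and 6.92, 6.52, 6.72 and 6.64 in RPE, 5.28-fold lower. The groups of arrays did not overlap for any of these genes.

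Among these BBSome genes, Bbs5 was at 10.24, 10.24, 10.36 and 10.34 in control NSR and at 7.33, 7.38, 7.51 and 7.11 in control RPE, 7.80-fold lower. Bbs9 had 11.12, 11.06, 11.05 and 11.17 in NSR and 8.28, 8.30, 7.99 and 8.17 in RPE, 7.54-fold lower. Bbs7 had 10.73, 10.89, 10.78 and 10.75 in NSR and 8.23, 8.15, 7.74 and 7.95 in RPE, 6.82-fold lower. These 3 subunits lay close together in size of difference, and the others followed: Bbs4 4.66-fold, Bbs2 3.29-fold, Ttc8 2.18-fold and Bbs1 1.45-fold lower. The 2 chaperonin-like genes that help the BBSome assemble differed from each other, Bbs12 being 5.05-fold lower in RPE and Bbs10 standing at 7.17 in NSR and 7.15 in RPE (adjusted p = 0.851).

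Of 10 genes of the connecting cilium and transition zone 9 were lower in RPE. Behind Rpgrip1 came Rpgr, the GTPase regulator mutated in X-linked retinitis pigmentosa, at 4.12-fold, and Cep290, which bridges membrane and microtubules, at 2.89-fold. The rest lay between 1.23-fold (Ahi1 and Iqcb1) and 1.68-fold (Tmem67 and Cc2d2a), and Nphp4 did not pass. Arl3, the GTPase that releases lipidated cargo inside the cilium, was 1.66-fold lower in RPE, and Rp2, which switches ARL3 off, was 1.62-fold higher.

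The transport machinery was more evenly shared. In IFT-B, Ift81 was 3.57-fold, Ift88 2.02-fold, Ift80 1.94-fold and Ift74 1.18-fold lower in RPE, while Ift57 was 2.11-fold, Ift52 1.5-fold and Ift46 1.38-fold higher. Ift20, Ift27 and Ift172 did not pass, with log2 differences between 0.00 and 0.15. In IFT-A, Ift43 was 1.3-fold higher, and Ift122 and Ift140 had -0.08 and 0.10. Of the kinesin genes, Kif3a was 1.41-fold lower, and Kif3b and Kif17 did not pass. Tulp3, an adaptor of IFT-A, stood at 7.37 in both tissues.

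**Figure D1:**
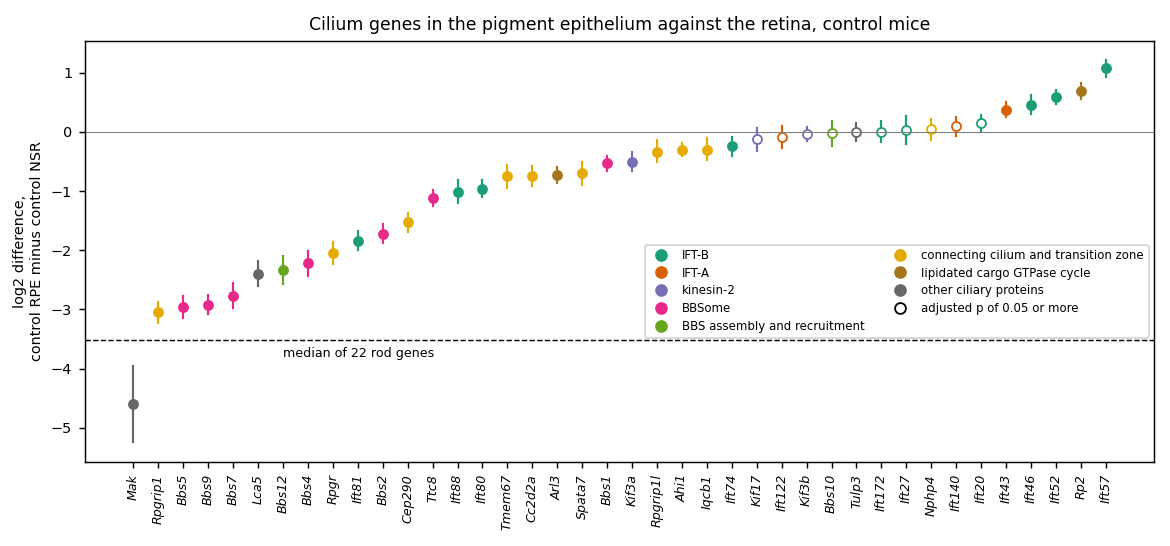
Log2 difference between control RPE and control NSR (y axis) for each of the 40 cilium genes (x axis, ordered by size), with 95% intervals from limma; filled points passed at an adjusted p under 0.05 and colours give the role of each gene. Mak at -4.60 lies below the dashed median of 22 rod genes (-3.51), Rpgrip1, Bbs5, Bbs9 and Bbs7 lie between -3.05 and -2.77, and Ift57 stands highest at 1.08.

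How much of the RPE values came from rod material was not tested. The 22 rod genes had a median difference of -3.51, and 29 of the 40 cilium genes had a negative difference. Markers of other cells were higher in control RPE: 16 of 18 for microglia and macrophages, with 0 lower (median 1.16). For fibroblasts and pericytes 11 of 14 were higher and 2 lower (median 0.53). The part of these cells in the genes higher in RPE was not tested. Other cilium genes on a separate list (further IFT, dynein, transition zone and centriole genes) gave 9 higher and 30 lower of 52, with a median of -0.23. Among these Tulp1, a photoreceptor protein needed for transport to the outer segment, was 13.42-fold and Fam161a, a connecting cilium protein, 8.05-fold lower, and Ccp110, a cap of the centriole, 2.93-fold lower. Tmem237 was 2.60-fold, Cep78 2.51-fold and the IFT-A gene Wdr35 2.42-fold higher in RPE.

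Centring each array on the median of all its clusters, chosen after seeing the data, moved the median difference of all genes from 0.04 to 0.19 and the share of calls higher in RPE from 56.0% to 72.2%. The cilium genes then gave 8 higher and 22 lower, with a median of -0.38. Ift74 (adjusted p = 0.29), Iqcb1 (0.12) and Rpgrip1l (0.0787) lost their calls there, and Ift74 also without RPE control 3 (0.0535).

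In the NSR, bright light was followed by lower values of BBSome, connecting cilium and some transport genes, and by a higher value of Ift57. Of the 40 genes 15 fell and 1 rose, and 24 did not pass the test (limma on the 8 NSR arrays). Among all genes 15.1% were called, 6.24% lower and 8.87% higher. The falls were modest, between 1.16-fold and 1.53-fold. The median log2 change was -0.16 for the cilium genes and -0.02 for all genes, and 32 of the 40 had a negative change. Light-exposed and control values were fully separate for 18 lower and 1 higher cilium genes, against 9.97% lower and 10.7% higher of all genes.

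Of the 7 listed BBSome genes 5 fell. Bbs9 went from the control values given above to 10.49, 10.50, 10.44 and 10.51 after light, a 1.53-fold fall (log2 -0.62, SE 0.06, adjusted p = 2.24e-05). Ttc8, the subunit also known as BBS8, had 9.87, 9.98, 9.97 and 9.99 in control NSR and 9.42, 9.30, 9.24 and 9.41 after light, 1.52-fold lower. Bbs7 stood at 10.19, 10.18, 10.08 and 10.29 after light, also 1.52-fold lower. For these 3 genes every light-exposed array lay below every control array by more than the spread within either group. Bbs2 fell 1.31-fold and Bbs1 1.16-fold, while Bbs4 and Bbs5 had changes of -0.20 (adjusted p = 0.11) and -0.16 (0.224). Bbs12 had 0.33 (0.0646), with 9.49, 9.44, 9.05 and 9.65 after light against 9.01, 9.07, 9.05 and 9.18 in control. NSR light 3 lay among the control values there, and without it Bbs12 was called higher (0.45, adjusted p = 0.00262). Outside this group, Tulp3 lay as near the threshold (0.23, adjusted p = 0.0625) and was called without NSR control 3 (0.29, 0.0167). With all arrays neither gene passed.

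Of the 10 connecting cilium and transition zone genes 5 fell. Rpgrip1 had 10.01, 9.75, 10.07 and 9.92 after light, 1.39-fold below control (log2 -0.48, SE 0.09, adjusted p = 0.00262). Spata7, a partner of RPGRIP1, and the transition zone genes Tmem67 and Cc2d2a were each 1.24-fold lower, and Cep290 1.2-fold. The others, Rpgr among them, had changes between -0.11 and 0.05. Lca5 stood at 8.54, 8.57, 8.59 and 8.50 after light, 1.47-fold lower (log2 -0.55, SE 0.06, adjusted p = 6.23e-05). Arl3 fell 1.3-fold, and Rp2 had -0.05.

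Ift57, an IFT-B subunit, was the 1 gene called higher. It stood at 10.08, 10.11, 10.03 and 9.97 in control NSR and at 11.02, 11.07, 10.84 and 11.07 after light, a 1.93-fold rise (log2 0.95, SE 0.07, adjusted p = 2.87e-06). The lowest light-exposed array was well above the highest control array. Of the other 9 IFT-B genes Ift81 fell 1.26-fold and Ift80 1.2-fold, and 7 did not pass, with changes between -0.19 and -0.06. In IFT-A, Ift140 fell 1.21-fold. The kinesin genes Kif3a, Kif3b and Kif17 had 0.11, -0.10 and -0.14, and Mak, with the largest difference between the tissues, had 0.10 (adjusted p = 0.493).

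**Figure D2:**
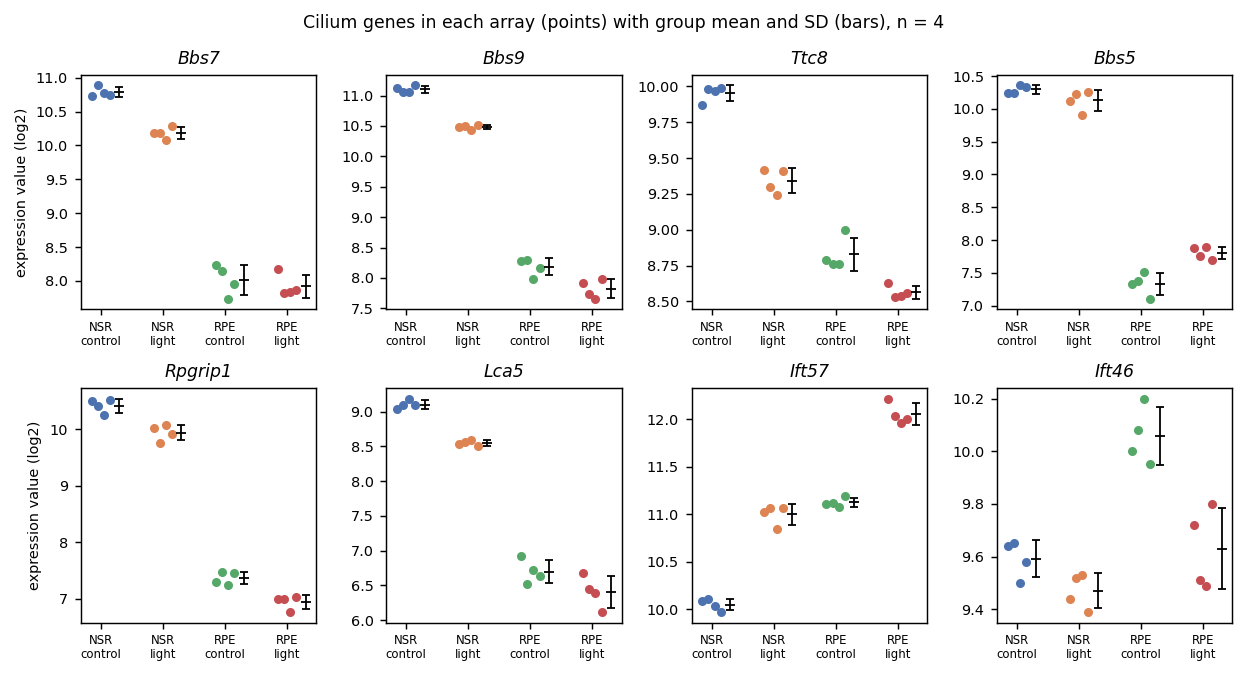
Log2 expression values (y axis, which does not start at 0 and differs between panels) of 8 cilium genes in each of the 16 arrays (points) by tissue and condition (x axis), with group means and SD (bars, n = 4). The light-exposed NSR arrays lie below control for Bbs7, Bbs9, Ttc8, Rpgrip1 and Lca5 and above control for Ift57, which is also higher in light-exposed RPE.

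In bulk tissue, fewer cells of a type and less RNA per cell cannot be told apart. Rod markers moved in the same arrays: of 22 measured, 21 fell and 0 rose, with a median change of -0.55, and their array medians were 10.90 to 11.17 after light against 11.54 to 11.66. Of 14 cone markers 10 fell and 1 rose (median -0.80). Some markers of other retinal cell types moved too. Of 13 Muller glia markers 6 fell and 4 rose (median change -0.20), and their array medians were 9.41 to 9.6 in control and 8.36 to 8.44 after light. Of 15 bipolar and amacrine markers 5 fell and 0 rose, but 6 had a positive and 9 a negative change (median change -0.08). Their array medians were 9.11 to 9.31 in control and 8.75 to 9.05 after light. An array median follows the middle marker of a list and can move more than the median change. The part of these marker shifts in the fall of the cilium genes was not tested. Of the 52 other cilium genes 12 fell and 1 rose, with a median of -0.09: Fam161a was 1.88-fold, Unc119, a carrier of lipidated photoreceptor proteins, 1.75-fold and Pde6d, a carrier of prenylated proteins, 1.45-fold lower, and Topors was 1.17-fold higher. Of 8 RFX and FOXJ1 factors 1 rose and 0 fell.

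Of the 16 NSR calls 12 held under all 17 alternatives run. The call of Bbs1 was lost without NSR control 1, 2 or 4 or NSR light 1, 2 or 4 (adjusted p = 0.0703 to 0.101). That of Ift80 was lost without NSR control 1, 2 or 4 or NSR light 2, 3 or 4 (0.0583 to 0.0951), that of Cep290 without NSR control 2 or 4 or NSR light 1, 2 or 3 (0.051 to 0.0642), and that of Spata7 without NSR control 4 (0.0501). Bbs1 was also lost with centring on all clusters (0.0739) and with trend and robust priors (0.057).

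In the RPE, light was followed by a 1.91-fold rise of Ift57 and by changes of other cilium genes in both directions. Of the 40 genes 9 fell, 4 rose and 27 did not pass (limma on the 8 RPE arrays), where 17.6% of all genes were called, 8.53% lower and 9.08% higher. The median change was -0.09 for the cilium genes and -0.01 for all genes. The arrays of the groups did not overlap for 10 lower and 4 higher cilium genes, against 10.9% and 11.3% of all genes.

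Ift57 had 11.11, 11.12, 11.08 and 11.19 in control RPE and 12.22, 12.04, 11.96 and 12.00 after light, a 1.91-fold rise (log2 0.93, SE 0.07, adjusted p = 3.49e-05). Bbs5, which binds phosphoinositides in the BBSome, had 7.88, 7.76, 7.89 and 7.69 after light, above every control array given above (1.39-fold, log2 0.48, SE 0.09, adjusted p = 0.00492). The IFT-A gene Ift43 had 9.75, 9.69, 9.67 and 9.70 in control and 10.12, 10.05, 9.96 and 10.07 after light, 1.27-fold higher. Ahi1, a transition zone gene, rose 1.16-fold. A count of 4 among 40 is near the 9.08% of all genes called higher.

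Ift46, an IFT-B subunit, fell from 10.00, 10.08, 10.20 and 9.95 to 9.72, 9.51, 9.49 and 9.80. The fall was 1.34-fold (log2 -0.43, SE 0.09, adjusted p = 0.00816). Rpgrip1 fell to 7.0, 6.99, 6.77 and 7.03, 1.34-fold below control. Bbs2 and Bbs9 each fell 1.29-fold, Arl3 1.28-fold, Ift140 1.24-fold, Ttc8 1.2-fold, Rp2 1.19-fold and Ift80 1.17-fold. Rpgr missed the threshold on the higher side (0.31, adjusted p = 0.0519) and Bbs1 on the lower (-0.20, 0.0636).

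**Figure D3:**
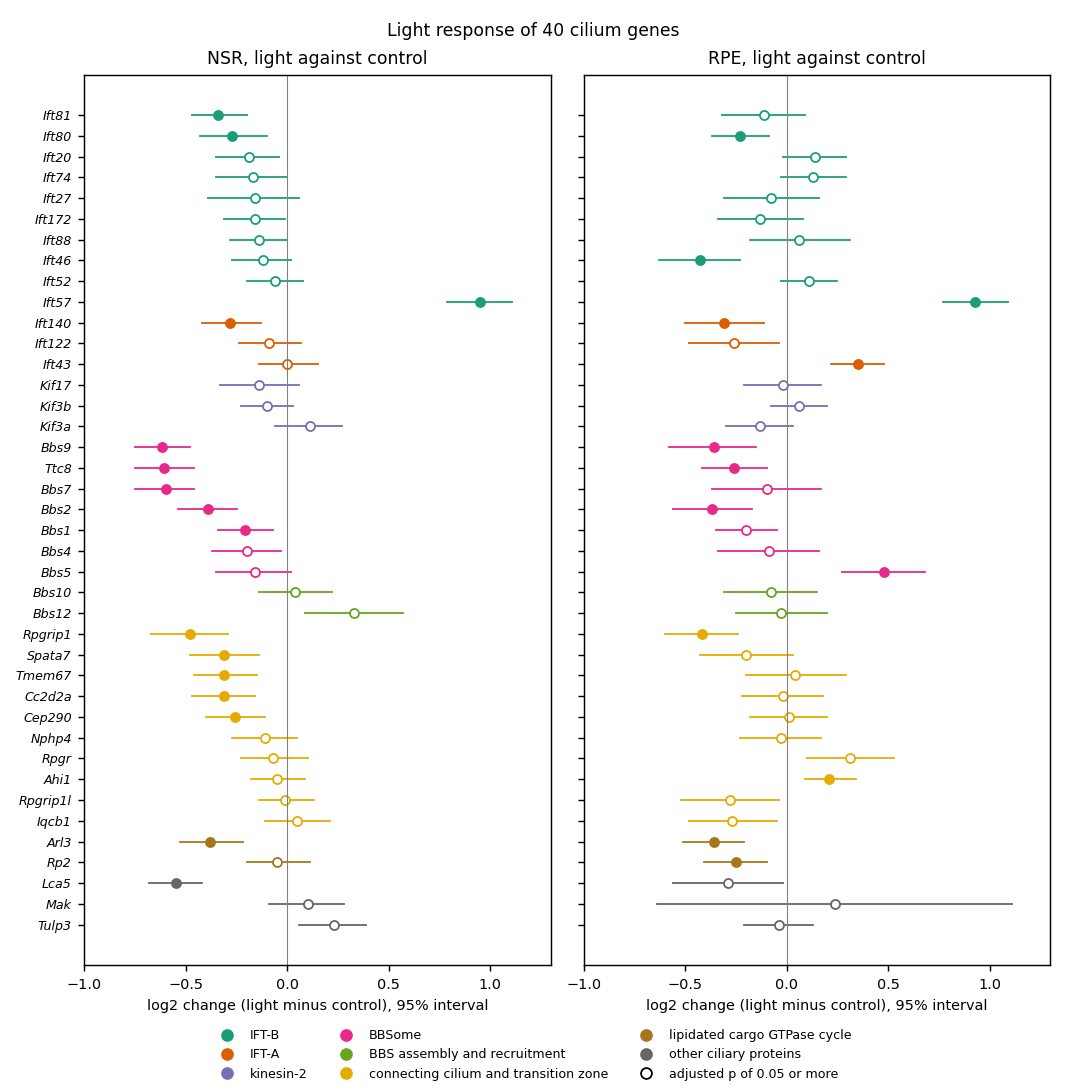
Log2 change with light (x axis) of the 40 cilium genes (y axis, grouped by role) in the NSR (left) and the RPE (right), with 95% intervals from limma; filled points passed at an adjusted p under 0.05. Ift57 stands apart at 0.95 and 0.93, 5 of 7 BBSome genes fell in the NSR, and Bbs5, Ift43 and Ahi1 rose in the RPE.

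Mak varied widely between the light-exposed RPE arrays: it stood at 8.55, 7.04, 6.19 and 6.86 after light, against 6.82 to 7.05 in control. The rod marker medians of the same light-exposed arrays were 8.37, 7.61, 7.21 and 7.57, so that RPE light 1 was highest and RPE light 3 lowest in both. Bbs7 was also highest in RPE light 1 (8.17, against 7.82 to 7.86), but was lowest in RPE light 2 (7.82). Rpgrip1 was also lowest in RPE light 3 (6.77), but was highest in RPE light 4 (7.03). Bbs5 had 7.88 in RPE light 1 and 7.89 in RPE light 3. Rod markers gave 3 lower and 0 higher of 22 with light in the RPE, with a median of -0.29, and RPE markers 17 lower and 1 higher of 25, with a median of -0.36. Of 13 Muller glia markers 2 rose and 2 fell, and 6 had a positive and 7 a negative change (median change -0.01). Their array medians were 7.41 to 7.57 in control RPE and 7.75 to 8.12 after light. These did not overlap, but they follow the middle marker only, and the markers as a list did not rise. The part of these markers in the results was not tested.

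**Figure D4:**
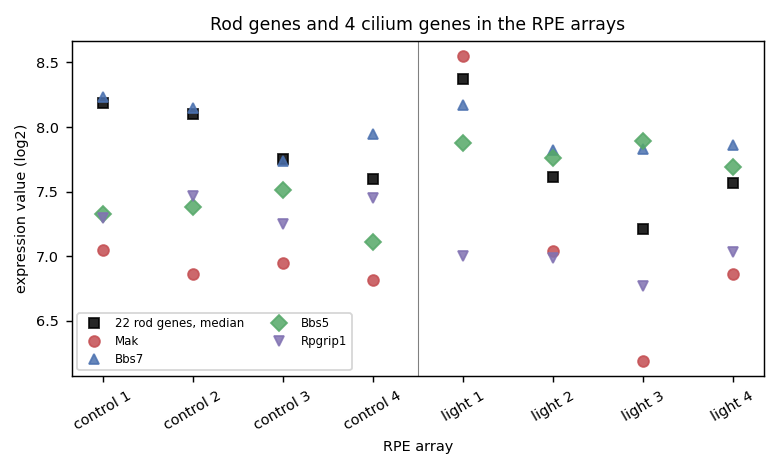
Log2 expression values (y axis) of Mak, Bbs7, Bbs5 and Rpgrip1 and the median of 22 rod genes in each of the 8 RPE arrays (x axis, control left of the line, light right). Mak and the rod median are highest in RPE light 1 (8.55 and 8.37) and lowest in RPE light 3 (6.19 and 7.21), while all Bbs5 values after light lie above the control values.

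Of the 13 RPE calls 2, those of Ift57 and Arl3, held under all 18 alternatives run. With 3 arrays left out at once (control 2, light 1 and light 2 of the RPE), 1 gene was called higher (Ift57) and 6 lower. Arl3, Bbs2 and Rp2 kept their calls, and Ift122, Lca5 and Spata7 entered. Bbs5 (adjusted p = 0.0719), Ift43 (0.0717), Ift46 (0.102) and Rpgrip1 (0.0576) lost theirs under that setting alone. The calls of the smaller changes lay near the threshold and could be lost when 1 array was left out. The count of genes that fell was 4 without RPE control 1, 3 without RPE control 4 and 4 without RPE light 3. The call of Bbs2 was lost without RPE control 4 (0.0508). Bbs9 was lost without RPE control 1, 2 or 4 or RPE light 2 or 3 (0.0548 to 0.0734), and Ift140 without RPE control 1, 3 or 4 or RPE light 2 or 3 (0.0718 to 0.0974). Ttc8 was lost without RPE control 1 or 4 or RPE light 2, 3 or 4 (0.0521 to 0.0746), and Rp2 without any control array or RPE light 3 or 4 (0.0515 to 0.085). Ift80 was lost without RPE control 1, 3 or 4 or RPE light 1, 3 or 4 (0.0504 to 0.0763), and Ahi1 without RPE control 2, 3 or 4 or RPE light 1, 2 or 4 (0.0564 to 0.0727).

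Of the 52 other cilium genes 5 fell and 3 rose in the RPE, with a median of -0.04. Cep41, a tubulin glutamylation factor, rose 1.69-fold, Dync2li1, a light intermediate chain of the return motor, 1.39-fold and Cep83 1.34-fold. Cep78 fell 1.44-fold, Tmem237 1.27-fold and Kif3c 1.25-fold. Of the RFX and FOXJ1 factors 1 fell and 0 rose.

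Between the tissues, 7 genes fell in both: Arl3, Bbs2, Bbs9, Ift140, Ift80, Rpgrip1 and Ttc8. They were 46.7% of the 15 NSR falls and 77.8% of the 9 RPE falls. Of all genes that fell, 290 did so in both tissues, 23.3% of those of the NSR and 17.1% of those of the RPE. The tissues came from the same mice. In control mice all of the 7 but Ift140 were lower in RPE than in NSR. The part of retinal RNA in the RPE falls was not tested. Of the 7, only Arl3 kept its call in both tissues under every alternative run.

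The difference of the light responses was then tested in a fit of all 16 arrays. It passed for 6 of the 40 cilium genes, with the RPE response above that of the NSR in each, and 0 the other way, where 13.2% of all genes passed, 5.16% upward and 8.05% downward. The 34 others did not pass. Ift57 had a difference of -0.02, with a 95% interval from -0.23 to 0.19, and Rpgrip1 0.06, from -0.20 to 0.31.

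The BBSome held 3 of the 6. Bbs5 had a change of 0.48 in RPE and -0.16 in NSR, a difference of 0.64 (SE 0.13, adjusted p = 0.00204). Bbs7 had -0.10 in RPE and -0.60 in NSR (difference 0.50, SE 0.14, adjusted p = 0.0224), and Ttc8 -0.26 and -0.61 (0.35, SE 0.09, 0.0177). The other 3 were Ift43 with 0.34 (0.00995), Ift20, an IFT-B subunit at the Golgi, with 0.33 (0.027), and Ahi1 with 0.26 (0.0283). Thus Bbs7 fell in the NSR, Bbs5 rose in the RPE and Ttc8 fell in both by different amounts. Rod markers passed for this difference in 6 of 22 genes, each with the RPE response above that of the NSR, and their part was not tested. Of the 52 other cilium genes 8 passed upward and 2 downward: Cep41 (0.80), Dync2li1 (0.75) and Fam161a (0.69) had the largest differences upward, and Cep78 (-0.61) and Tmem237 (-0.31) were the 2 downward.

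With the mouse as a block, Ift43 (adjusted p = 0.0502) and Ahi1 (0.105) lost the call. Leaving out the same 3 RPE arrays at once, Bbs5 and Bbs7 kept theirs. Ttc8 had a difference of 0.31 (adjusted p = 0.0984), Ift20 0.32 (0.0809), Ift43 0.30 (0.0796) and Ahi1 0.23 (0.14) there. Ift122 entered on the lower side. Centring on all clusters also lost the call of Ahi1 (0.0513). Ift20 was lost without NSR control 2, 3 or 4, NSR light 4, RPE control 1 or RPE light 2 (0.0524 to 0.0593). Ahi1 was lost without NSR control 2, 3 or 4, NSR light 1 or 2, RPE control 3 or 4, or RPE light 1 or 2 (0.0504 to 0.0584).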

How the data were processed

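For 35556 transcript clusters on each of 16 arrays the table deposited by the authors holds log2 values. The submitters' processing notes name RMA and Partek 6.6. The log2 scale was read from the values (2.20 to 13.84). Probe filters, any centring and background levels were not stated in the labels or headers, and no batch is named. The platform annotation gave 21789 clusters 1 symbol, 1621 several and 12146 none, and only the first were used. Where a gene had several clusters, the one with the highest mean of the 16 arrays was kept, which left 19938 genes. Each measured cilium gene had 1 cluster.

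Light was compared within each tissue, and the tissues and the difference of responses over all 16 arrays, with lmFit and eBayes (R 4.3.3, limma 3.58.1) and Benjamini-Hochberg adjustment over all genes. Tables and figures used Python 3.11.15, pandas 2.3.3 and matplotlib 3.10.9. The fits were tested on simulated data. Among 120 pairs of arrays 0 were identical.

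The genes and lists were chosen with earlier results of these data known. The rule for named genes took, per comparison, the called cilium genes, up to the 8 largest rises and 8 largest falls. It added the genes with a called difference of responses and the 3 largest called changes each way of the other cilium genes. Values in every array were to be given for the 6 genes with the largest change in the NSR, 4 in the RPE and 6 between the tissues. Those of Bbs12, Ift43 and Mak with light were added after their values were seen, as were the smaller called changes. The rule's brightest and dimmest genes are not named, since levels of different probes cannot be compared.

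NSR and RPE of 1 mouse share an identifier in the labels and so form pairs by animal. Departures of such pairs from their group means had correlations of -0.011 to 0.053. Alternatives were the block, leaving out the dimmest 25% of genes, other scaling, the mean of a gene's clusters, trend and robust priors, array weights, other arrays in the fit, and leaving out arrays. The number of arrays limits the precision.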

Additional observations from a re-analysis of the deposited data

Results flagged for a closer look

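Each of the 40 cilium genes was checked in each group for an array apart from the other 3, 160 groups in all. In 7 the gap to the nearest array exceeded Dixon's 95% critical value, where chance gives about 1 in 20. Ift20 stood at 9.51 in NSR control 1 against 9.70 to 9.73. Rpgr stood at 9.32 in NSR control 4 against 9.13 to 9.15, and Tulp3 at 7.56 in NSR control 3 against 7.28 to 7.32. Nphp4 stood at 6.57 in RPE control 2 against 6.40 to 6.41, and Ttc8 at 9.0 in RPE control 4 against 8.76 to 8.79. Bbs7 stood at 8.17 in RPE light 1 against 7.82 to 7.86, and Rpgrip1 at 6.77 in RPE light 3 against 6.99 to 7.03.

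The light responses of the tissues differed by the test of the difference (RPE minus NSR, limma over all genes) for 6 genes. They were Bbs5 (0.64), Bbs7 (0.50), Ttc8 (0.35), Ift43 (0.34), Ift20 (0.33) and Ahi1 (0.26).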

How the results depend on the processing

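No called cilium gene changed direction under any alternative run. In the NSR, 1 gene was called higher, and 2 with a block for the replicate number, after removal of the dimmest 25% of genes, with trend and robust priors, with array weights or with all 16 arrays in the fit. It was 3 with centring on the median of all clusters, an alternative chosen after seeing the data. The added genes were Bbs12 or Tulp3. Quantile normalization, another scaling, gave 18 lower, against 15, with Ift172, Ift20 and Ift88 added. Leaving out 1 array gave 1 to 2 higher and 11 to 15 lower. In the RPE, with 9 lower and 4 higher, all 16 arrays in the fit gave 14 lower, and the replicate number as a block 6 lower and 3 higher. Leaving out 1 array gave 3 to 9 lower and 3 to 4 higher. With control 2, light 1 and light 2 of the RPE left out at once, 1 was higher, and over all genes 998 rose and 1058 fell, against 1810 and 1700. For the difference of responses, quantile normalization gave 9 higher, against 6, with Ift74, Rpgr and Tmem67 added. Trend and robust priors called 1 gene lower (Ift46). Leaving out those 3 arrays gave 2 higher and 1 lower, the mouse as a block 4 higher, and leaving out 1 array 4 to 7 higher and 0 to 1 lower. For the tissues, centring on all clusters gave 8 higher (9625 of all genes, against 6140), and leaving out 1 array 5 to 6 higher and 24 to 25 lower. With the mouse as a block the tissue counts stayed at 5 and 25. With the number block Bbs1 lost its NSR call (adjusted p = 0.0862), and Ahi1 (0.0705), Ift80 (0.089), Rp2 (0.0715) and Ttc8 (0.0635) their RPE calls. Numbers shared by control and light mice only name them (deviations correlated between -0.017 and 0.066). The causes of these shifts were not tested. Height above background is unknown.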
